A study of Mus musculus with 15 samples.

Results

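Protocadherin genes were followed in RNA-seq libraries of the mouse olfactory epithelium, made after precipitating ribosomes that carry phosphorylated S6, a ribosomal protein. Members were the rows whose symbol is Pcdh with an alpha, beta or gamma cluster letter and a number, or Pcdh with a number alone, leaving out Pcdh10. This gave 68 genes of the 57010 rows of the count table: 58 clustered and 10 non-clustered. The clustered genes were 14 alpha (with Pcdhac1 and Pcdhac2), 22 beta and 22 gamma genes. The symbol Pcdha11 stood on 2 rows, ENSMUSG00000007440 and ENSMUSG00000102206, which are kept apart here, and no row carried the symbol Pcdha10. On GRCm38 the RefSeq gene named Pcdha10 starts just inside ENSMUSG00000007440 and ends with it, as the one named Pcdha11 does for ENSMUSG00000102206, so the first row may hold Pcdha10. The non-clustered genes were Pcdh1, Pcdh7, Pcdh8, Pcdh9, Pcdh12, Pcdh15, Pcdh17, Pcdh18, Pcdh19 and Pcdh20. All 58 clustered genes, with Pcdh1 and Pcdh12, lie on mouse chromosome 18, which holds 60 of the 68 members.

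The mice were wild-type C57BL/6J males of 8 weeks, housed singly and kept without odour for 4 h before 90 min of exposure, and there were 3 libraries in each of 5 groups. A+D mice received acetophenone and decanal on 1 shared filter paper, and A&D mice received the same odorants on separate papers 1 mm apart. Octanal and cis-3-hexenol were given in the same 2 ways to the O+C group (shared paper) and the O&C group (separate papers), always at 10 µL per odorant. Control mice received empty papers. Neurons phosphorylate S6 when active, so the precipitate is enriched for RNA of active cells, and no library of the unprecipitated tissue is used here. In such bulk libraries fewer cells of a type and less RNA per cell cannot be told apart. The labels call the 3 libraries of a group biological replicates, and none of the groups received a single odorant.

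The libraries held 22704193 to 25287077 counts, of which the 68 members took 0.0304% to 0.0449%. Of the members 64 passed the filter on low counts and were tested: 14 alpha, 20 beta, 21 gamma and 9 non-clustered genes. Pcdhb2, Pcdhb13, Pcdhgb8 and Pcdh15 did not pass. A+D replicate 2 stood apart from the other libraries, with a mean correlation of log CPM of 0.958 with them, against 0.970 to 0.978 for the others. Among the 15 libraries it held the lowest CPM of 16 of the 55 tested clustered genes and the highest CPM of 3. Markers of mature olfactory sensory neurons were abundant in every library, with a summed level over 12 genes of 10259 to 12947 for A+D, 12903 to 15817 for A&D, 15194 to 18732 for O+C and 15445 to 21152 for O&C, against 9108 to 10067 for Control libraries (CPM).

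Protocadherins are calcium-dependent adhesion proteins of the cadherin superfamily that bind the same protein on a facing membrane. In the alpha and gamma clusters each gene contributes its own first exon, which is spliced to constant exons that the whole cluster shares, whereas a beta gene is a single coding exon without them. Most clustered genes are switched on in random combinations by promoter choice in each neuron, while the C-type genes at the end of the alpha and gamma clusters are expressed more uniformly. In mouse olfactory sensory neurons the clustered proteins take part in sorting and spreading axons in the olfactory bulb. The non-clustered delta protocadherins (Pcdh1, Pcdh7, Pcdh8, Pcdh9, Pcdh17, Pcdh18 and Pcdh19) have their own promoters, and several are expressed in subsets of neurons and bind actin regulators.

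Among the non-clustered genes, Pcdh8 and Pcdh9 were those whose level passed the test in a comparison with Control. The 250 bases upstream of their transcription starts are shown for that reason, as given by RefSeq in the GRCm38.p6 build, read 5′ to 3′ on the minus strand. The Pcdh8 stretch is chr14:79771313-79771562 and the Pcdh9 stretch is chr14:93890680-93890929, and capitals mark motif matches.
Pcdh8: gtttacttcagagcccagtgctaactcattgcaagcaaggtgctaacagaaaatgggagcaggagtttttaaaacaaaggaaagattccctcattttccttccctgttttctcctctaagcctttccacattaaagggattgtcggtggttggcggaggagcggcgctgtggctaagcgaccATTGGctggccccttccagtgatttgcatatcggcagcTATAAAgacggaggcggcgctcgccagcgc
Pcdh9: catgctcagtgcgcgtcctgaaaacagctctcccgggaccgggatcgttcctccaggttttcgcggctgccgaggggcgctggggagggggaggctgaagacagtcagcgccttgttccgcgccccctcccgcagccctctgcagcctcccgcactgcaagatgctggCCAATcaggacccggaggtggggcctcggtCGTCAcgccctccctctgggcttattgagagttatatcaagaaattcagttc
The motifs searched, on both strands, were the CCAAT box, the TATA box as TATAAA, the core of a cyclic AMP response element as TGACG and the core bound by EBF factors of olfactory neurons as CCCNNGGG, and no match overlapped another in the stretches shown. CCAAT was found upstream of 7 of the 8 non-clustered members searched, all but Pcdh7, and in 33.8% of 32851 RefSeq promoters. TATAAA was found for Pcdh8 and Pcdh15, against 12.4% of all promoters. TGACG was found for Pcdh9, against 17.8%. CCCNNGGG was found in 0 of the 8, against 11.8%. These matches describe letters in a window and are not evidence of binding.

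The deposited values are estimated counts, and how often they were whole numbers differed between the clusters. A value was taken as whole within 0.0005, the 3 decimals given. Whole values made up 0.476% of the alpha values, 3.64% of the gamma values, 81.8% of the beta values and 72.7% of the non-clustered values. Over all 57010 rows of a library the share was 86.0% to 87.9%. A value of 0 counts as whole, and rows too low to test are in that share, so it does not describe expressed genes alone. Of the 14 alpha genes 13 had no whole value in any of the 15 libraries, as had 15 of the 22 gamma genes and 0 of the 22 beta genes. The beta genes Pcdhb1, Pcdhb2 and Pcdhb7 were whole in all 15 libraries, while Pcdhb22 was whole in 5 and Pcdhb21 in 6. Among the non-clustered genes Pcdh12, Pcdh15, Pcdh18, Pcdh19 and Pcdh20 were whole in all 15 libraries, Pcdh8 in 1 and Pcdh7 in 0. In the GENCODE gene models the alpha genes share 456 coding bases with the other 13 alpha genes, or 15.1% to 16.3% of the coding length. The gamma genes share 372 coding bases with the other 21 gamma genes, or 13.1% to 13.6%, and the beta and non-clustered members share 0. How a read from a shared exon was divided among the genes of a cluster is not given in the sources used here, so the error that this adds to single alpha and gamma values is unknown. Sums over a cluster do not depend on that division within it.

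**Figure D1:**
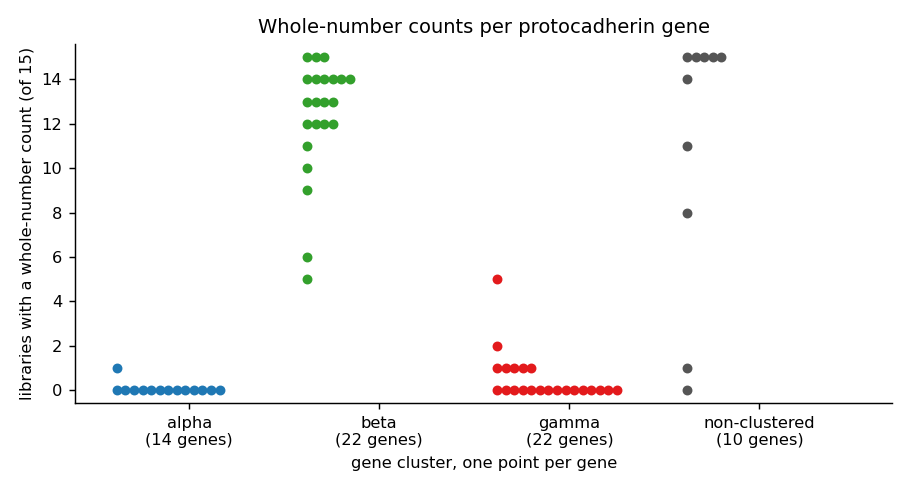
For each of the 68 genes (one point each, by cluster along the x axis) the y axis gives the number of the 15 libraries with a whole-number count. The alpha genes sit at 0 or 1 and the gamma genes between 0 and 5, while the beta genes spread from 5 to 15.

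Levels are compared between genes only as CPM per kb of coding length, averaged over the 15 libraries. Untranslated exons are not in this length. Pcdhgc4, a C-type gamma gene needed for neuronal survival in mice, had the highest level of the clustered genes, 16.6 ± 4.19 CPM per coding kb (SD, n = 15). The next were the C-type genes Pcdhac2, which serotonergic axons of the mouse need to spread, at 5.43 ± 0.979, and Pcdhgc3, a binder of Axin1, at 4.53 ± 0.959. The spreads of Pcdhac2 and Pcdhgc3 overlapped. Each SD spans the libraries of all 5 groups, and no test between genes was made. The remaining C-type genes were lower, Pcdhac1 at 1.096 ± 0.28 and Pcdhgc5 at 0.0753 ± 0.0842 CPM per coding kb, with at most 20.9 counts of Pcdhgc5 in a library.

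Beta genes spanned 0.0338 (Pcdhb2) to 4.15 ± 1.15 CPM per coding kb (Pcdhb9). Below Pcdhb9 stood Pcdhb7 at 3.36 ± 0.679, Pcdhb17 at 3.01 ± 0.656 and Pcdhb1 at 2.66 ± 1.18, neighbours whose spreads overlapped. The 12 alpha genes other than the C-type pair lay closer together, with a median of 1.65 CPM per coding kb and Pcdha2 highest at 2.51 ± 0.794. One alpha gene, Pcdha8, was far below the others at 0.151 ± 0.146. The gamma a genes had a median of 0.328 with Pcdhga7 highest at 1.02 ± 0.329, and the gamma b genes a median of 0.555 with Pcdhgb6 highest at 0.963 ± 0.382 CPM per coding kb.

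Among the non-clustered genes the order was Pcdh8 at 11.5 ± 3.43, Pcdh17 at 9.09 ± 2.65, Pcdh7 at 8.00 ± 1.26 and Pcdh19 at 4.96 ± 1.22 CPM per coding kb. The first 3 overlapped in their spreads. Pcdh9 at 2.30 ± 0.508, Pcdh18 at 2.20 ± 0.346 and Pcdh1 at 2.15 ± 0.483 also overlapped in their spreads. Pcdh20, Pcdh12 (a protein of endothelial cells) and Pcdh15 (a part of the tip link of inner ear hair cells) were at 0.0993 ± 0.0788, 0.0735 ± 0.043 and 0.0244 ± 0.0238 CPM per coding kb. These last 3 had at most 20, 14 and 12 counts in a library.

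**Figure D2:**
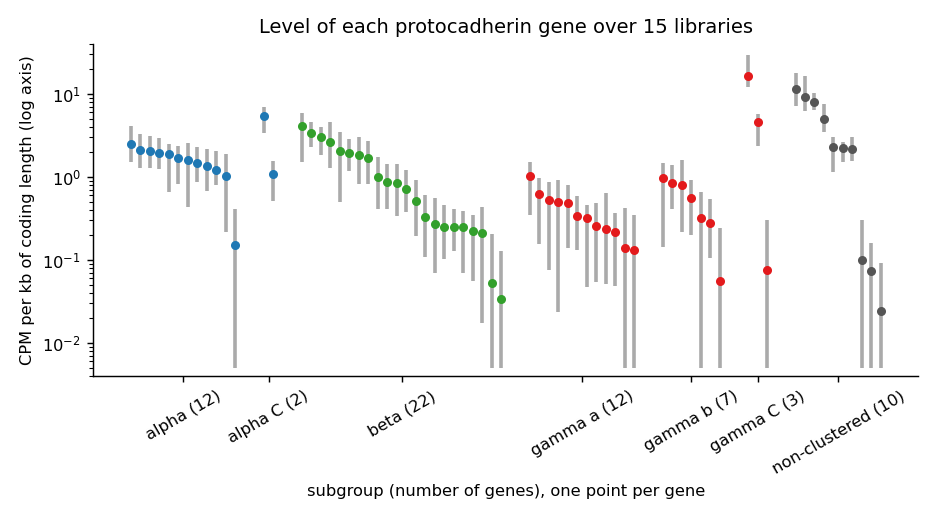
Each point is one gene's level in CPM per kb of coding length (log axis), the mean of 15 libraries, and each line runs from the lowest to the highest library, or to the foot of the plot where a library was at 0. Genes are ordered within subgroups, and Pcdhgc4 at 16.6 stands above every other clustered gene.

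Exposure to octanal and cis-3-hexenol (O+C and O&C, the octanal groups) went with higher levels of part of the clustered genes. In O+C libraries 6 of the 55 tested clustered genes rose against Control and 0 fell, and in O&C libraries 12 rose and 0 fell. The shares were 10.9% and 21.8% of the clustered genes, where 5.74% and 9.33% of all 19229 tested genes rose and 2.35% and 5.41% fell (in either direction 8.09% and 14.7%). The test was edgeR's quasi-likelihood test with Benjamini-Hochberg adjustment over all genes and a threshold of 0.05. Both comparisons use the same 3 Control libraries. By cluster, 2 of 14 alpha, 3 of 20 beta and 1 of 21 gamma genes rose in O+C, and 3 of 14 alpha, 7 of 20 beta and 2 of 21 gamma genes rose in O&C. The gamma shares, 4.76% in O+C and 9.52% in O&C, were near those of all genes that rose. The alpha and beta shares were above those of all genes in both groups. The median log2 fold change of the tested clustered genes was 0.41 in O+C and 0.57 in O&C, against -0.01 and -0.04 over all genes tested. For the gamma genes alone the medians were 0.28 in O+C and 0.59 in O&C, also above those of all genes.

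In A+D and A&D libraries 0 of the 55 clustered genes were called against Control, where 0.322% and 1.02% of all genes were, 0.296% and 1% as higher and 0.026% and 0.0208% as lower. At an unadjusted p under 0.05 A+D had 4 of the 55 clustered genes (7.27%, against 13.7% of all genes) and A&D had 9 (16.4%, against 11.9%). DESeq2 called 1 clustered gene in each comparison, Pcdhb4 for A+D and Pcdha5 for A&D, where it called 1.31% and 2.34% of all genes to which it gave an adjusted p. Median log2 fold changes over the clustered genes were 0.03 in A+D and 0.15 in A&D, against 0.02 and -0.0018 over all genes. The clusters differed in sign in A+D, with medians of 0.30 for alpha, 0.05 for beta and -0.33 for gamma genes. Among the 15 libraries A+D replicate 2 held the lowest CPM of 7 of the 21 gamma and 8 of the 20 beta genes.

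**Figure D3:**
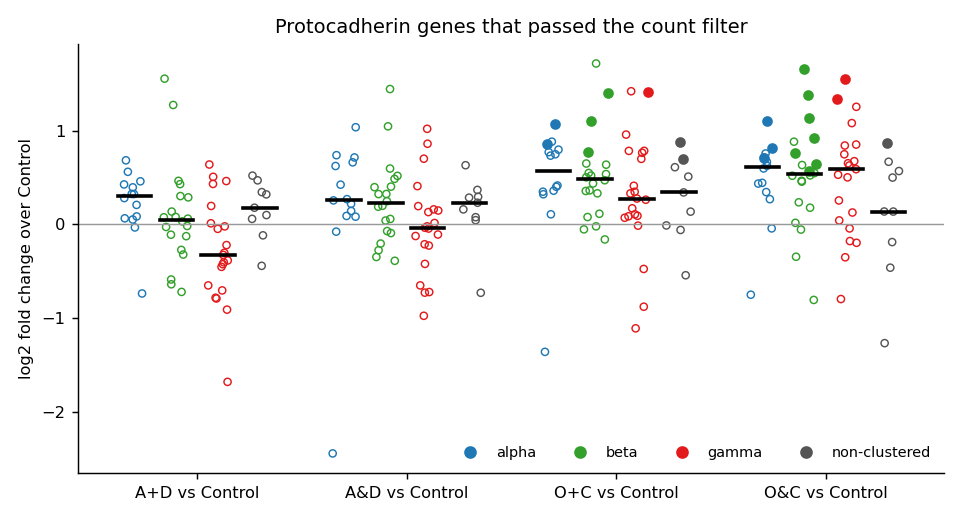
Log2 fold changes over Control (y axis) of the 64 tested genes in the 4 odour groups, one point per gene, with filled points for an adjusted p under 0.05 and a bar at the median. Filled points appear in O+C and O&C, all of them above 0, and in neither A+D nor A&D.

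Pcdhb1 was the clustered gene with the smallest p in both octanal comparisons. It is a beta gene whose promoter, like those of Pcdhac2, Pcdhgc4 and Pcdhgc5, lacks the conserved sequence element of the other clustered promoters. It had 4.99, 3.10 and 4.36 CPM in A+D libraries, 3.98, 6.59 and 4.70 CPM in A&D, 10.2, 7.83 and 8.09 CPM in O+C and 9.24, 11.3 and 11.3 CPM in O&C libraries, against 4.65, 3.67 and 3.88 CPM in Control libraries. All 6 O+C and O&C libraries lay above the other 9, and the A+D and A&D libraries overlapped Control. The rise was 1.099 ± 0.22 in O+C (log2 fold change ± SE, adjusted p = 0.00473) and 1.38 ± 0.22 in O&C (adjusted p = 0.000406) by edgeR, and it was called in each of the 6 fits that left out 1 library of either comparison. In A+D the log2 fold change was 0.03 ± 0.22 (adjusted p = 0.962) and in A&D 0.32 ± 0.22 (adjusted p = 0.61). Its counts were whole in every library, between 70.0 and 275.

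The other beta genes that rose in both octanal groups were Pcdhb17 and Pcdhb4. Pcdhb17 had 6.55, 5.23 and 7.59 CPM in A+D libraries, 5.82, 6.94 and 8.21 CPM in A&D, 9.30, 8.31 and 9.55 CPM in O+C and 8.46, 8.15 and 8.28 CPM in O&C libraries, against 5.94, 5.54 and 4.38 CPM in Control libraries. The octanal libraries were above all Control libraries and overlapped 1 A&D library. It rose by 0.77 ± 0.18 in O+C (adjusted p = 0.0136) and 0.65 ± 0.18 in O&C (adjusted p = 0.022), with adjusted p of 0.0231 to 0.0734 and 0.0346 to 0.104 when 1 library was left out. Pcdhb4, with 11 to 52 counts a library, had 2.18, 1.42 and 1.31 CPM in A+D libraries, 1.54, 0.99 and 0.917 CPM in A&D, 1.72, 1.73 and 0.972 CPM in O+C and 1.08, 1.20 and 1.40 CPM in O&C libraries, against 0.647, 0.558 and 0.454 CPM in Control libraries. All 12 odour libraries were above the 3 Control libraries, and it was the 1 clustered gene for which the 6 A+D and A&D libraries were (background 4.73%). Its log2 fold change was 1.55 ± 0.36 for A+D (adjusted p = 0.0856), 1.05 ± 0.36 for A&D (0.231), 1.40 ± 0.36 for O+C (0.0224) and 1.13 ± 0.36 for O&C (0.0436), of which the octanal ones passed. Leaving out 1 library ended its call in 5 of 6 fits for O+C and in 6 of 6 for O&C.

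Pcdhb7, Pcdhb19, Pcdhb16 and Pcdhb6 rose in O&C. Pcdhb7 averaged 6.71 ± 1.04 CPM for A+D, 8.57 ± 0.642 CPM for A&D, 9.49 ± 1.18 CPM for O+C and 10.2 ± 1.50 CPM for O&C, against 6.85 ± 0.571 CPM for Control (mean ± SD, n = 3), and its rise in O&C was 0.57 ± 0.17 (adjusted p = 0.0274). Pcdhb19 averaged 3.89 ± 0.424 CPM for A+D, 4.21 ± 0.386 CPM for A&D, 5.51 ± 0.954 CPM for O+C and 5.99 ± 0.709 CPM for O&C, against 3.55 ± 0.621 CPM for Control and rose by 0.76 ± 0.20 (adjusted p = 0.0168). In both genes the 6 octanal libraries lay above the Control libraries, as did the 3 A&D libraries for Pcdhb7. Pcdhb16 rose by 0.92 ± 0.29 (adjusted p = 0.0379) and Pcdhb6, with 4 to 29 counts a library, by 1.66 ± 0.55 (adjusted p = 0.0489). In O+C these 4 genes had log2 fold changes of 0.47, 0.64, 0.52 and 1.72 and were not called. With 1 library left out, the O&C calls held in 2 of 6 fits for Pcdhb7, 4 of 6 for Pcdhb19, 2 of 6 for Pcdhb16 and 1 of 6 for Pcdhb6. Pcdhb9, the beta gene with the highest level, was not called in any comparison and averaged 8.75 ± 4.34 CPM for A+D, 10.1 ± 1.81 CPM for A&D, 11.2 ± 2.12 CPM for O+C and 12.7 ± 3.35 CPM for O&C, against 8.87 ± 1.77 CPM for Control.

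Of the alpha genes, Pcdha1 and the Pcdha11 row ENSMUSG00000007440 rose in both octanal groups and Pcdha12 in O&C. Pcdha1 had 4.39, 3.44 and 4.91 CPM in A+D libraries, 5.51, 5.23 and 4.87 CPM in A&D, 4.37, 6.67 and 6.16 CPM in O+C and 4.01, 5.93 and 6.72 CPM in O&C libraries, against 2.31, 3.12 and 4.07 CPM in Control libraries. One O&C library, replicate 1, overlapped Control replicate 3, while the A&D and O+C libraries were above all Control libraries. It rose by 0.85 ± 0.25 in O+C (adjusted p = 0.0408) and 0.81 ± 0.25 in O&C (adjusted p = 0.0343), with adjusted p of 0.0359 to 0.17 and 0.0158 to 0.16 when 1 library was left out, and its log2 fold change for A&D was 0.71 ± 0.25 (adjusted p = 0.231). Pcdha11 (ENSMUSG00000007440) had 3.42, 3.27 and 5.38 CPM in A+D libraries, 4.84, 4.60 and 4.28 CPM in A&D, 5.62, 5.40 and 6.13 CPM in O+C and 5.40, 4.97 and 7.28 CPM in O&C libraries, against 3.70, 1.22 and 3.29 CPM in Control libraries. Each of its octanal and A&D libraries was above the Control libraries, of which replicate 2 was far below the others. The rise was 1.07 ± 0.30 in O+C (adjusted p = 0.0367) and 1.104 ± 0.30 in O&C (adjusted p = 0.0199), and without Control replicate 2 the log2 fold changes were 0.72 and 0.75. Pcdha12 averaged 4.87 ± 1.12 CPM for A+D, 6.49 ± 1.63 CPM for A&D, 5.57 ± 0.389 CPM for O+C and 6.88 ± 0.997 CPM for O&C, against 4.20 ± 0.616 CPM for Control and rose by 0.70 ± 0.22 in O&C (adjusted p = 0.0354), a call that held in 1 of 6 fits with 1 library left out.

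Pcdha5 had the smallest p of the clustered genes in A&D. It averaged 3.81 ± 1.00 CPM for A+D, 4.87 ± 0.995 CPM for A&D, 3.95 ± 0.551 CPM for O+C and 4.02 ± 0.466 CPM for O&C, against 2.38 ± 0.676 CPM for Control, and its log2 fold change was 0.68 ± 0.26 for A+D (adjusted p = 0.289) and 1.04 ± 0.26 for A&D (adjusted p = 0.0632). Without A+D replicate 2, which enters the shared estimate of the spread, the A&D adjusted p was 0.0359, and without Control replicate 3 it was 0.0389. Pcdha2, the alpha gene with the highest level, averaged 6.63 ± 2.08 CPM for A+D, 5.77 ± 1.49 CPM for A&D, 9.14 ± 2.52 CPM for O+C and 8.66 ± 2.12 CPM for O&C, against 5.44 ± 1.15 CPM for Control and was not called in any comparison. Its octanal libraries were above all 3 Control libraries and overlapped the A+D and A&D libraries. Pcdha8, the alpha gene with the lowest level (0 to 26.3 counts a library), had 0.152, 1.16 and 1.07 CPM in A+D libraries, 0, 0.265 and 0.065 CPM in A&D, 0.0707, 0.568 and 0.0614 CPM in O+C and 0.848, 0.132 and 0.15 CPM in O&C libraries, against 0.578, 1.04 and 0.277 CPM in Control libraries. The groups overlapped, and its log2 fold change of -2.44 ± 1.05 for A&D had an adjusted p of 0.362, or 0.0459 with no filter on low counts.

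In the gamma cluster Pcdhga11 rose in both octanal groups and Pcdhgb1 in O&C. Pcdhga11 had 0.647, 1.08 and 1.19 CPM in A+D libraries, 1.08, 1.78 and 1.27 CPM in A&D, 2.21, 1.18 and 2.02 CPM in O+C and 1.92, 2.23 and 1.76 CPM in O&C libraries, against 0.608, 1.03 and 0.389 CPM in Control libraries. The 6 octanal libraries were above the Control libraries, as were the 3 A&D libraries, while A+D libraries overlapped Control. It rose by 1.41 ± 0.39 in O+C (adjusted p = 0.0329) and 1.55 ± 0.39 in O&C (adjusted p = 0.0122), with adjusted p of 0.0211 to 0.145 and 0.00796 to 0.0601 when 1 library was left out. Pcdhgb1 had 0.806, 0.603 and 2.24 CPM in A+D libraries, 0.929, 1.66 and 1.85 CPM in A&D, 2.95, 2.43 and 2.83 CPM in O+C and 3.67, 4.04 and 4.43 CPM in O&C libraries, against 1.88, 1.91 and 0.997 CPM in Control libraries. Its 6 octanal libraries lay above the other 9. It rose by 1.34 ± 0.38 in O&C (adjusted p = 0.0252), and in O+C its log2 fold change was 0.76 ± 0.38 (adjusted p = 0.245). Pcdhga7 and Pcdhgb6, the gamma a and gamma b genes with the highest levels, were not called in any comparison, with log2 fold changes of 0.70 and 0.28 in O+C and 0.63 and 0.75 in O&C.

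The C-type genes did not pass the test against Control in any odour group. Pcdhgc4 had 45.4, 82.9 and 50.9 CPM in A+D libraries, 52.7, 50.6 and 43.8 CPM in A&D, 44.4, 46.1 and 50.4 CPM in O+C and 35.1, 35.2 and 33.8 CPM in O&C libraries, against 43.1, 37.7 and 52.0 CPM in Control libraries. A+D replicate 2 was far above all other libraries, and the 3 O&C libraries were below all others. Its log2 fold change was 0.43 ± 0.17 for A+D (adjusted p = 0.31), 0.15 ± 0.17 for A&D (0.806), 0.09 ± 0.17 for O+C (0.815) and -0.35 ± 0.18 for O&C (0.191). Pcdhac2 had 17.6, 13.5 and 15.4 CPM in A+D libraries, 10.1, 17.7 and 13.8 CPM in A&D, 18.8, 18.5 and 21.1 CPM in O+C and 20.0, 18.5 and 17.1 CPM in O&C libraries, against 15.5, 13.2 and 15.02 CPM in Control libraries. The 6 octanal libraries were above the Control libraries, and O&C replicate 3 lay among the A+D and A&D libraries. Its log2 fold change was 0.08 for A+D, -0.08 for A&D, 0.41 for O+C and 0.34 for O&C. Pcdhgc3 averaged 10.5 ± 3.45 CPM for A+D, 11.3 ± 2.43 CPM for A&D, 14.1 ± 2.46 CPM for O+C and 14.4 ± 0.833 CPM for O&C, against 13.2 ± 2.87 CPM for Control, and Pcdhac1 averaged 3.11 ± 1.20 CPM for A+D, 3.58 ± 0.54 CPM for A&D, 3.24 ± 0.338 CPM for O+C and 2.91 ± 0.783 CPM for O&C, against 3.00 ± 1.31 CPM for Control. Pcdhgc5 stayed at or below 0.865 CPM in every library, with 1 library at 0.

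Across the tested clustered genes, 16 of 55 (29.1%) had all 6 O+C and O&C libraries above all 3 Control libraries, where 13.8% of all tested genes did. They were 6 of 14 alpha, 7 of 20 beta and 3 of 21 gamma genes. The gamma share, 14.3%, was near the 13.8% of all tested genes, while the alpha and beta shares were above it. The opposite pattern, all 6 octanal libraries below Control, was seen in 0 of 55, where 10.4% of all tested genes showed it. For the A+D and A&D libraries 0 of 55 lay below Control, where 3.06% of all tested genes did.

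Many of these calls ended when 1 library was left out, each of those named below in turn. The O+C call was lost for Pcdhb17 without O+C replicate 1 or Control replicate 3 (adjusted p 0.0582 to 0.0734), for Pcdhb4 without O+C replicates 1 and 2 or Control replicates 1, 2 and 3 (adjusted p 0.0522 to 0.103) and for Pcdha1 without O+C replicates 2 and 3 or Control replicates 1 and 2 (adjusted p 0.108 to 0.17). It was also lost for Pcdha11 (ENSMUSG00000007440) without O+C replicates 1, 2 and 3 or Control replicates 2 and 3 (adjusted p 0.061 to 0.119) and for Pcdhga11 without O+C replicates 1 and 3 or Control replicates 1 and 3 (adjusted p 0.0919 to 0.145). The O&C call was lost for Pcdhb17 without O&C replicate 3 or Control replicates 2 and 3 (adjusted p 0.053 to 0.104), for Pcdhb4 without O&C replicates 1, 2 and 3 or Control replicates 1, 2 and 3 (adjusted p 0.061 to 0.143), for Pcdha1 without O&C replicates 2 and 3 or Control replicates 1 and 2 (adjusted p 0.0905 to 0.16) and for Pcdhga11 without Control replicates 1 and 3 (adjusted p 0.0511 to 0.0601). For Pcdha11 (ENSMUSG00000007440) it was lost without O&C replicate 3 or Control replicate 2 (adjusted p 0.0681 to 0.104), for Pcdha12 without O&C replicates 1 and 3 or Control replicates 1, 2 and 3 (adjusted p 0.0555 to 0.158) and for Pcdhgb1 without O&C replicates 2 and 3 or Control replicates 1 and 3 (adjusted p 0.0527 to 0.113). Among the beta genes that rose in O&C it was lost for Pcdhb7 without O&C replicates 2 and 3 or Control replicates 2 and 3 (adjusted p 0.0851 to 0.109), for Pcdhb19 without O&C replicate 3 or Control replicate 2 (adjusted p 0.0863 to 0.0901), for Pcdhb16 without O&C replicates 2 and 3 or Control replicates 1 and 3 (adjusted p 0.0693 to 0.16) and for Pcdhb6 without O&C replicates 1 and 3 or Control replicates 1, 2 and 3 (adjusted p 0.0533 to 0.284). The counts of called clustered genes moved with them. In O+C the count of 6 became 2, 3 and 4 without O+C replicates 1, 2 and 3 in turn; 4, 3 and 2 without Control replicates 1, 2 and 3 in turn. In O&C the count of 12 became 9, 7 and 2 without O&C replicates 1, 2 and 3 in turn; 6, 5 and 5 without Control replicates 1, 2 and 3 in turn. Without A+D replicate 2, in neither comparison but part of the shared estimate of the spread, 10 were called in O+C and 16 in O&C. Over all genes the calls moved as well. The 1555 of O+C became 542, 1206 and 966 without O+C replicates 1, 2 and 3 in turn. Without Control replicates 1, 2 and 3 they became 743, 834 and 793. The 2834 of O&C became 2096, 2284 and 1274 without O&C replicates 1, 2 and 3 in turn. Without Control replicates 1, 2 and 3 they became 1727, 1789 and 1826. Without A+D replicate 2 the calls were 2501 in O+C and 4226 in O&C.

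Sums over a cluster were then compared by library, since they do not depend on how reads were divided within it. The 14 alpha genes summed to 64.1, 66.5 and 73.4 for A+D, 70.7, 77.8 and 67.8 for A&D, 80.1, 83.5 and 93.4 for O+C and 77.3, 83.0 and 94.5 for O&C, against 57.8, 59.6 and 58.5 for Control libraries (CPM). All 12 odour libraries were above the Control libraries. The 22 beta genes summed to 58.7, 38.3 and 62.8 for A+D, 53.2, 67.0 and 59.2 for A&D, 72.0, 76.3 and 77.5 for O+C and 65.8, 86.1 and 91.3 for O&C, against 50.8, 50.2 and 51.7 for Control libraries. The octanal and A&D libraries were above the Control libraries, and A+D replicate 2 was the lowest of all 15. The 22 gamma genes summed to 81.2, 101 and 84.6 for A+D, 75.8, 89.1 and 78.9 for A&D, 90.3, 89.9 and 87.7 for O+C and 81.1, 82.4 and 81.7 for O&C, against 81.1, 73.9 and 78.8 for Control libraries. The A+D, O+C and O&C sums were above all Control sums, though the lowest A+D and O&C sums stood next to the highest Control sum, and the A&D sums overlapped Control. Pcdhgc4 alone made up 41.4% to 81.9% of a library's gamma sum. Without it the gamma sums averaged 29.3 ± 9.58 CPM for A+D, 32.2 ± 8.16 CPM for A&D, 42.4 ± 4.45 CPM for O+C and 47.0 ± 0.912 CPM for O&C, against 33.7 ± 6.01 CPM for Control libraries (mean ± SD, n = 3 each). The 3 O&C sums without Pcdhgc4 were then above all Control sums, while O+C replicate 3 overlapped them. Unlike whole-cluster sums, the Pcdhgc4 share and the sums without it depend on how shared reads were divided among the gamma genes. Over all 58 clustered genes the sums averaged 210.3 ± 9.22 CPM for A+D, 213 ± 18.2 CPM for A&D, 250.2 ± 8.14 CPM for O+C and 248 ± 21.9 CPM for O&C, against 188 ± 3.32 CPM for Control libraries. The 10 non-clustered genes summed to 142 ± 23.6 CPM for A+D, 138 ± 18.4 CPM for A&D, 160.3 ± 21.1 CPM for O+C and 141 ± 10.6 CPM for O&C, against 115 ± 3.88 CPM for Control libraries. No test was made on a sum.

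**Figure D4:**
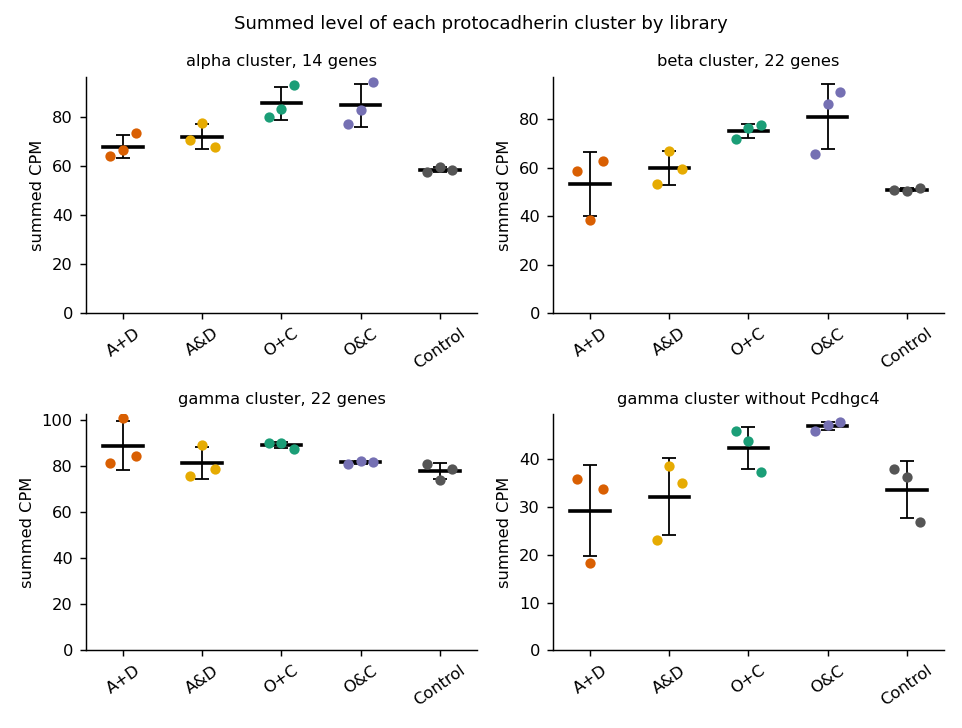
Summed CPM of the alpha, beta and gamma genes and of the gamma genes without Pcdhgc4 (y axes start at 0) in each library, with the group mean as a bar and the SD as whiskers, n = 3. All 12 odour libraries lie above Control in the alpha panel and all but A+D replicate 2 in the beta panel, and the gamma panels differ by Pcdhgc4 alone.

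The same octanal libraries held more mature olfactory sensory neuron marker RNA. All 12 markers of that list rose in O+C and in O&C, where 5.74% and 9.33% of all tested genes rose. For A+D 0 of 12 rose (background 0.296%), and 3 of 12 did for A&D (background 1%). Between the odorant pairs, 11 of 12 were lower with acetophenone and decanal (background 9.03%). The summed levels of the 12 markers in each group are given with the description of the libraries, and those of all 4 odour groups lay above Control. Immature sensory neuron markers summed to 3699.6 to 4774 for A+D, 3472 to 3829 for A&D, 3398 to 3579 for O+C and 3082 to 3395 for O&C, against 3271 to 3673 for Control libraries. Immune cell markers summed to 829 to 1226 for A+D, 845 to 1479 for A&D, 676 to 695 for O+C and 591 to 801 for O&C, against 1042 to 1468 for Control libraries, and 4 of 9 fell in O+C and 6 of 9 in O&C. Sustentacular cell markers summed to 3963 to 5141 for A+D, 4328 to 4970.4 for A&D, 3824 to 4711 for O+C and 3666 to 4836 for O&C, against 5188 to 6493 for Control libraries, with 2 of 8 lower in O&C. Beside these immune and sustentacular falls, 2.35% of all tested genes fell in O+C and 5.41% in O&C. Also, 1 of 6 horizontal basal cell (Krt15), 1 of 8 glial (S100b) and 1 of 11 endothelial and stromal markers (Dcn) fell in each octanal group. In O&C 1 of 6 microvillar (Ascl3) and 1 of 6 ciliated cell markers (Foxj1) fell. Of the 8 immature neuron markers 1, Ncam1, rose in O+C (background 5.74%). In these lists 0 genes were at 0 in every library. The part of these cell types in the protocadherin differences was not tested.

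Of the 9 tested non-clustered genes, Pcdh8 and Pcdh9 rose in O+C and Pcdh8 rose in O&C, and 0 fell. That is 22.2% and 11.1% of the 9, beside 5.74% and 9.33% of all genes. With acetophenone and decanal, under either delivery, 0 were called by edgeR's quasi-likelihood test and 0 by DESeq2, and 1 of 9 (11.1%) had an unadjusted p under 0.05 in each, against 13.7% and 11.9% of all genes. The median log2 fold change of the 9 was 0.18 for A+D, 0.23 for A&D, 0.34 for O+C and 0.14 for O&C.

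Pcdh8, known in rat as arcadlin, is induced by synaptic activity in the hippocampus and draws N-cadherin into the cell. It had 30.2, 22.8 and 32.5 CPM in A+D libraries, 29.8, 40.0 and 27.6 CPM in A&D, 51.2, 44.7 and 50.6 CPM in O+C and 44.5, 43.7 and 57.3 CPM in O&C libraries, against 25.4, 27.3 and 27.2 CPM in Control libraries. All 6 octanal libraries were above the other 9, the highest of which was A&D replicate 2. It rose by 0.87 ± 0.16 in O+C (adjusted p = 0.00226) and 0.86 ± 0.16 in O&C (adjusted p = 0.0013), and both calls held in each of 6 fits with 1 library left out. In A+D and A&D the log2 fold changes were 0.10 ± 0.16 (adjusted p = 0.801) and 0.28 ± 0.16 (0.496). Its estimated counts, 515 to 1299.9 a library, were whole in 1 library, and fitting them unrounded left both calls in place.

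Pcdh9, a delta protocadherin of developing forebrain neurons, had 7.76, 7.31 and 8.36 CPM in A+D libraries, 10.9, 10.3 and 7.42 CPM in A&D, 9.99, 8.83 and 11.1 CPM in O+C and 7.72, 9.83 and 9.83 CPM in O&C libraries, against 5.94, 8.22 and 4.30 CPM in Control libraries. All 3 O+C libraries were above the Control libraries, while O&C replicate 1 lay below Control replicate 2. Its rise in O+C was 0.70 ± 0.21 with an adjusted p of 0.04996, just under the threshold. That call was lost without Control replicate 1 (0.142), Control replicate 3 (0.206), O+C replicate 1 (0.144), O+C replicate 2 (0.0596) and O+C replicate 3 (0.146) (adjusted p in brackets), and with the other size factors of DESeq2 (adjusted p = 0.0513). In A&D and O&C its log2 fold changes were 0.63 ± 0.21 (adjusted p = 0.209) and 0.57 ± 0.21 (0.0795).

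The more abundant delta genes Pcdh17, Pcdh7 and Pcdh19 were not called in any comparison. Pcdh17, a presynaptic adhesion protein that binds the WAVE complex, had 26.7, 57.4 and 33.2 CPM in A+D libraries, 39.3, 37.6 and 27.0 CPM in A&D, 26.6, 26.3 and 40.1 CPM in O+C and 22.9, 29.5 and 21.8 CPM in O&C libraries, against 29.9, 23.2 and 31.6 CPM in Control libraries. A+D replicate 2 was the highest library, and the groups overlapped. Pcdh19, mutated in a human epilepsy, had 12.0, 25.8 and 19.9 CPM in A+D libraries, 19.3, 16.4 and 16.1 CPM in A&D, 18.9, 17.7 and 24.8 CPM in O+C and 13.6, 17.3 and 13.4 CPM in O&C libraries, against 14.4, 12.8 and 13.1 CPM in Control libraries. Its highest libraries were A+D replicate 2 and O+C replicate 3, and all 3 A&D and all 3 O+C libraries were above Control, with an O+C log2 fold change of 0.61 ± 0.21 (adjusted p = 0.0872). For A+D it was 0.52 ± 0.21 (adjusted p = 0.31), and 0.77 (adjusted p = 0.0353) without A+D replicate 1. Pcdh7, whose human protein binds the SET protein, averaged 32.8 ± 5.49 CPM for A+D, 29.4 ± 5.05 CPM for A&D, 33.3 ± 5.42 CPM for O+C and 28.9 ± 3.82 CPM for O&C, against 26.3 ± 2.54 CPM for Control, with log2 fold changes between 0.14 in O&C and 0.34 in O+C.

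Pcdh1, an adhesion protein also of airway epithelium, averaged 6.53 ± 0.707 CPM for A+D, 6.09 ± 0.265 CPM for A&D, 8.23 ± 1.44 CPM for O+C and 8.17 ± 2.33 CPM for O&C, against 5.78 ± 0.898 CPM for Control, with log2 fold changes of 0.51 ± 0.21 in O+C (adjusted p = 0.151) and 0.50 ± 0.21 in O&C (0.119). Pcdh18, whose mouse protein binds the adaptor Dab1, averaged 7.40 ± 0.861 CPM for A+D, 8.28 ± 0.573 CPM for A&D, 7.96 ± 1.52 CPM for O+C and 5.82 ± 0.625 CPM for O&C, against 8.03 ± 0.275 CPM for Control. The 3 O&C libraries of Pcdh18 were below all Control libraries, with a log2 fold change of -0.46 ± 0.17 (adjusted p = 0.0752). Pcdh20 and Pcdh12 passed the filter with at most 20 and 14 counts a library and were not called.

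**Figure D5:**
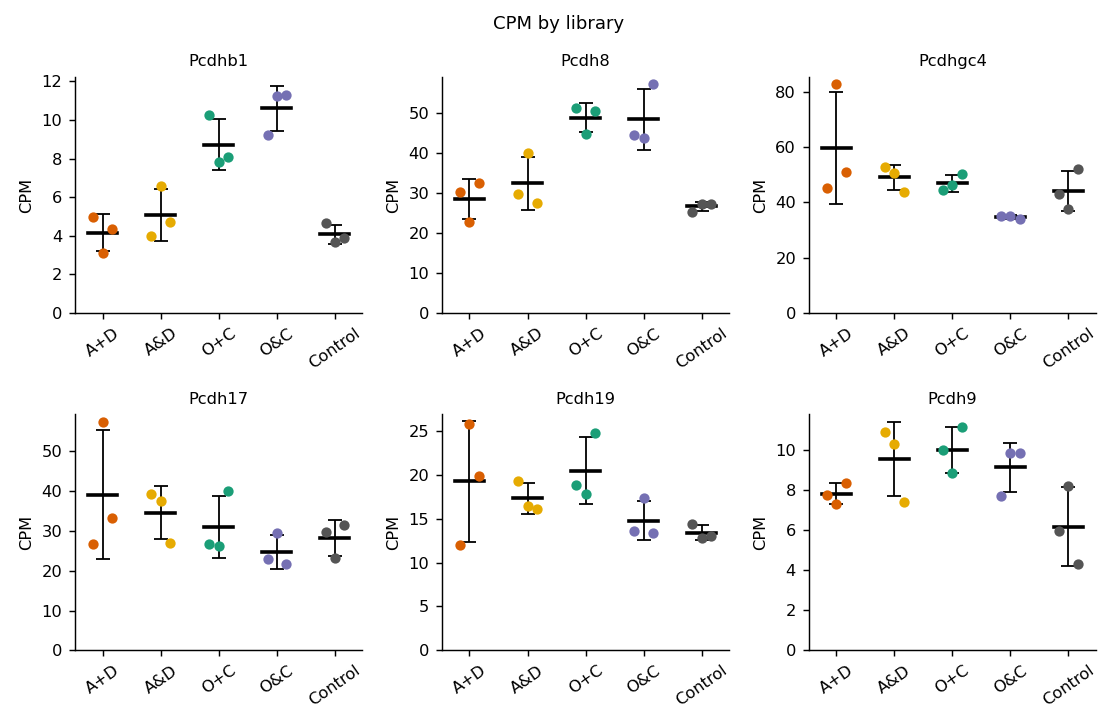
CPM in each library (y axes start at 0) for Pcdhb1, Pcdh8, Pcdhgc4, Pcdh17, Pcdh19 and Pcdh9, with the group mean as a bar and the SD as whiskers, n = 3. For Pcdhb1 and Pcdh8 the O+C and O&C points lie above all others, and for Pcdhgc4, Pcdh17 and Pcdh19 the highest point is A+D replicate 2.

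The odorant pairs were compared as the mean of A+D and A&D minus the mean of O+C and O&C. Of the 55 clustered genes 7 were lower with acetophenone and decanal (12.7%) and 1 was higher (1.82%). Over all genes 9.03% were lower and 6.74% higher, 15.8% in all. The median log2 difference was -0.38 for the clustered genes and 0.03 for all genes. The lower genes were Pcdhb1 (log2 fold change -1.06 ± 0.15 SE, adjusted p = 0.000203), Pcdhgb1 (-1.30 ± 0.28, 0.00522), Pcdhb14 (-0.88 ± 0.23, 0.0165) and Pcdhb19 (-0.50 ± 0.14, 0.0221). They also included Pcdhga6 (-0.97 ± 0.29, 0.0311), Pcdhb7 (-0.37 ± 0.12, 0.039) and Pcdhac2 (-0.38 ± 0.12, 0.0425). The 6 acetophenone and decanal libraries lay below all 6 octanal libraries in 4 of the 55 genes, Pcdhb1, Pcdhb19, Pcdhga6 and Pcdhgb1 (background 4.66%), and above them in 0 of 55 (background 3.26%).

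Pcdhb14, which was not called against Control, had 4.15, 1.20 and 4.28 CPM in A+D libraries, 2.91, 5.00 and 4.11 CPM in A&D, 4.95, 6.55 and 6.81 CPM in O+C and 6.11, 7.05 and 8.37 CPM in O&C libraries, against 3.56, 3.95 and 4.17 CPM in Control libraries. A+D replicate 2 was the lowest library, and A&D replicate 2 overlapped O+C replicate 1. Pcdhga6 had 1.105, 1.0997 and 1.07 CPM in A+D libraries, 0.213, 1.22 and 1.35 CPM in A&D, 1.57, 2.06 and 1.85 CPM in O+C and 2.12, 1.75 and 2.45 CPM in O&C libraries, against 1.58, 1.25 and 1.56 CPM in Control libraries, and here the Control libraries overlapped the octanal ones. The calls of Pcdhb1, Pcdhb14 and Pcdhgb1 held in each of 12 fits with 1 library left out. With libraries left out 1 at a time, the call of Pcdhb19 was lost without A&D replicate 1, O+C replicates 1 and 2 or O&C replicate 3 (adjusted p 0.0514 to 0.0615), that of Pcdhga6 without A+D replicate 3, O+C replicates 1 and 2 or O&C replicate 3 (adjusted p 0.0504 to 0.0707), that of Pcdhb7 without A+D replicate 2, A&D replicates 1 and 3, O+C replicates 1 and 2 or O&C replicates 2 and 3 (adjusted p 0.0522 to 0.106) and that of Pcdhac2 without A+D replicates 2 and 3, A&D replicates 1 and 3, O+C replicates 1, 2 and 3 or O&C replicates 1, 2 and 3 (adjusted p 0.0503 to 0.105). Those of Pcdhb19 and Pcdhga6 held in 8 of 12 and 8 of 12, that of Pcdhb7 in 5 of 12 and that of Pcdhac2 in 2 of 12.

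Pcdhgc4 was the 1 clustered gene that was higher with acetophenone and decanal (log2 fold change 0.42 ± 0.12 SE, adjusted p = 0.0287). Without A+D replicate 2 the difference was 0.25 (adjusted p = 0.0567), and the call held in 4 of 12 fits with 1 library left out, being lost without A+D replicate 2, A&D replicates 1 and 2, O+C replicates 1 and 2 or O&C replicates 1, 2 and 3 (adjusted p 0.0525 to 0.081). In the same comparison 3 of 8 immature neuron markers (Gap43, Stmn2 and Gng8), 6 of 9 immune cell markers, 2 of 11 endothelial and stromal markers, the microvillar cell marker Ascl3 and the ciliated cell marker Foxj1 were higher, and 11 of 12 mature neuron markers were lower. Of all tested genes 6.74% were higher and 9.03% lower in that comparison. The 8 immature neuron markers had log2 differences of -0.21 to 0.41, 6 of them above 0. The part of these cells in the result was not tested. With 1 library left out the number of called clustered genes was 9, 7 and 7 without A+D replicates 1, 2 and 3 in turn. Without A&D replicates 1, 2 and 3 in turn it was 4, 8 and 7. Without O+C replicates 1, 2 and 3 in turn it was 3, 3 and 7. Without O&C replicates 1, 2 and 3 in turn it was 8, 5 and 3. Over all genes 3032 were called with every library in the fit. Without A+D replicates in that order they were 4293, 2742 and 2891, and without A&D replicates 1781, 2839 and 2463. Without O+C replicates they were 1833, 2376 and 2734, and without O&C replicates 2629, 2395 and 1720.

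Of the non-clustered genes Pcdh8 was lower with acetophenone and decanal (log2 fold change -0.68 ± 0.11 SE, adjusted p = 0.000661), which held in each of 12 fits with 1 library left out, and its 6 libraries lay below all 6 octanal libraries. The other 8 were not called, so 11.1% of the 9 were lower, near the 9.03% of all genes. The same non-overlap was seen in 1 of 9 (11.1%), against 4.66% of all genes. The nearest were Pcdh1 at -0.38 ± 0.15 (adjusted p = 0.0902) and Pcdh17 at 0.41 ± 0.18 (adjusted p = 0.133).

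One shared paper was compared with separate papers within each pair. For A+D against A&D 0 of 55 clustered and 0 of 9 non-clustered genes were called, where 0.12% of all genes were. For O+C against O&C 0 were called in both classes, and 0% of all genes. At an unadjusted p under 0.05 there were 3 clustered and 0 non-clustered genes for the first pair and 3 and 2 for the second, where 3.91% and 3.98% of all genes were under it. DESeq2 called 0 in both, and 0.165% and 0.0121% of all genes. The delivery effect did not differ by odorant pair past the threshold (interaction term) for any member, that is for 0 of 64, and it did for 0.0104% of all genes, with 4 clustered genes and 1 non-clustered gene at an unadjusted p under 0.05 (background 2.69%) and 0 by DESeq2 (background 0.0181%). For Pcdhb1 the log2 differences were -0.29 ± 0.22 between A+D and A&D and -0.28 ± 0.21 between O+C and O&C. For Pcdh8 they were -0.19 ± 0.16 and 0.01 ± 0.15, and for Pcdhgc4 0.28 ± 0.17 and 0.44 ± 0.18.

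Genes that act with protocadherins were read from lists of regulators, partners and relatives. Of 12 regulators of the clustered promoters, among them the CTCF and cohesin genes and Smchd1, 0 were called in any of the 8 comparisons, and their summed level was 643 to 826 for A+D, 617 to 724 for A&D, 653 to 783 for O+C and 617 to 640.4 for O&C, against 639 to 694 for Control libraries (CPM). At an unadjusted p under 0.05 there were 1 in O+C and 2 in O&C, where 23.2% and 29.6% of all genes were under it. Of 15 intracellular partners 1 was called against Control, the WAVE complex gene Cyfip1, which fell in O&C (-0.40 ± 0.12, adjusted p = 0.0351). That is 6.67% of the 15, near the 5.41% of all genes that fell in O&C. With acetophenone and decanal the WAVE complex genes Nckap1 (-0.43 ± 0.10, adjusted p = 0.00984) and Wasf1 (-0.42 ± 0.12, adjusted p = 0.0229) and the Wnt pathway gene Axin1 (-0.37 ± 0.10, adjusted p = 0.0205) were lower than with octanal and cis-3-hexenol. These are 20% of the 15, where 9.03% of all genes were lower.

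Of 18 tested relatives in the cadherin superfamily 4 rose and 1 fell in O+C (22.2% and 5.56%, against 5.74% and 2.35% of all genes). In O&C 4 rose and 2 fell (22.2% and 11.1%, against 9.33% and 5.41%). The genes that rose in both were the calsyntenins Clstn2 (1.06 ± 0.13, adjusted p = 8.53e-05 in O+C; 1.17 ± 0.13, adjusted p = 1.73e-05 in O&C) and Clstn1 (0.85 ± 0.13, adjusted p = 0.000524; 1.05 ± 0.13, adjusted p = 3.64e-05), with Cdhr1 and Cdh4. Cdhr1 rose by 0.68 ± 0.14, adjusted p = 0.00683 in O+C and 0.66 ± 0.14, adjusted p = 0.00486 in O&C, and Cdh4 by 0.72 ± 0.18, adjusted p = 0.0176 and 0.80 ± 0.18, adjusted p = 0.00547. Dchs1 fell in O&C (-1.26 ± 0.26, adjusted p = 0.0034). The other genes that fell were Cdh13 in O+C (-0.95 ± 0.29, adjusted p = 0.0484) and Cdh11 in O&C (-0.42 ± 0.13, adjusted p = 0.0404). In A+D and A&D 0 of the 18 were called, where 0.322% and 1.02% of all genes were. At an unadjusted p under 0.05 in edgeR's test there were 7 (38.9%) in A+D and 5 (27.8%) in A&D. Of all genes 13.7% and 11.9% were under it. Clstn1, Clstn2 and Cdh4 were lower with acetophenone and decanal than with octanal and cis-3-hexenol (-0.67, -0.62 and -0.59 on the log2 scale). These are 16.7% of the 18, where 9.03% of all genes were lower.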

How the data were processed

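RNA bound to phosphorylated S6 was sequenced from 15 libraries with a stranded mRNA kit, per the labels' protocols. The submitters' processing notes name STAR 2.7.10b for alignment, Salmon 1.10.1 for quantification and the GRCm39 build; annotation and strand setting are not given in the sources used here. The authors deposited an estimated count per gene, made by Salmon per the submitters' processing notes and not scaled by library size. They were rounded to whole numbers. Symbols were found for 52029 of 57010 identifiers. Genes were kept by filterByExpr with a minimum count of 10, leaving 19229. CPM uses TMM-scaled library sizes. Genes were tested with edgeR 4.0.16 (R 4.3.3) by a robust quasi-likelihood F test on 1 fit with a mean per group over 15 libraries, two-sided, with Benjamini-Hochberg adjustment over all genes. The common dispersion was 0.0336. SE values are |log2 fold change| over the root of F. Each p-value weighs a difference between group means against the spread between libraries, estimated over all 15.

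The scripts were tested on simulated counts. Levels per length use the longest coding sequence of GENCODE vM21 (GRCm38), in place of the planned RefSeq proteins, which are not used here; no position on GRCm39 is given. The genes named are all non-clustered and C-type members, clustered members called in any comparison, the highest of each subgroup, and, where fewer than 3 were called against Control, the 3 with the smallest p. Pcdhb4, Pcdha5, Pcdha1 and Pcdhgc4 met that last part, and of these only Pcdha5 was named by it alone. The pathway genes are those called, at most 4 a list; Cdh13, Cdh11, Pcdha8 and the genes named for their counts were added after their values were seen. The members and lists were chosen with earlier results of these data known. Alternatives were DESeq2 1.42.0, its size factors, no filter, unrounded counts, only the groups compared, a replicate block and leaving out each library; leaving out A+D replicate 2 where it was in neither group was chosen after seeing the data.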

Additional observations from a re-analysis of the deposited data

How the results depend on the processing

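Of the 30 called gene and comparison pairs, each kept its direction under the alternatives run. The call held for all 29 that DESeq2 gave an adjusted p (it gave none for Pcdhb6 in O&C), 29 with its size factors, 29 with unrounded counts, 28 with only the groups compared and 27 with no filter, and in 156 of 255 fits without 1 library. Counts of called clustered genes moved by over 1.5 times as follows: with DESeq2 1 in A+D and 1 in A&D against Control; with no filter 1 in A+D, 2 in A&D, 2 in A+D against A&D and 13 between the odorant pairs; with only the groups compared 11 in O+C and 21 in O&C. Counts of called non-clustered genes moved to 2 in O&C with DESeq2, 2 between the odorant pairs with no filter and 1 in O+C with the other size factors. Over all genes DESeq2 called 232 in A+D, 430 in A&D and 3564 in O&C, beside 62, 197 and 2834 in the main fit. With no filter 885 were called in A+D, 610 in A&D and 208 in A+D against A&D. The main fit called 62, 197 and 23 there. Between the odorant pairs it was 3734 with no filter, beside 3032. With only the groups compared 2618 were called in O+C and 4664 in O&C, beside 1555 and 2834. The other size factors gave 1506 in O+C. The cause of the moved counts was not tested.

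With 1 library left out, called clustered genes ranged from 2 to 10 in O+C, 2 to 16 in O&C, 3 to 9 between the odorant pairs, 0 to 1 in A&D and 0 to 0 in A+D, and called non-clustered genes from 1 to 3 in O+C, 1 to 2 in O&C, 1 to 2 between the pairs and 0 to 1 in A+D. Over all genes the calls ranged from 542 to 2501 in O+C, 1274 to 4226 in O&C and 1720 to 4293 between the pairs. In A&D they ranged from 112 to 409 and in A+D from 43 to 527. Same-numbered libraries did not deviate together, with a median r of -0.0377 over 30 pairs, against 0.0259 over other pairs. Of these 30 pairs 3 were over 0.1, and 1 of 15 libraries correlated best with its own number. The main fit did not pair libraries by number. Whether equal numbers share a day or batch cannot be told from these correlations. With the replicate block 7 clustered genes were called in O+C, 10 in O&C and 7 between the pairs, and 1 non-clustered gene in each. Over all genes it called 1107, 2338 and 2359 in these comparisons. Of the 30 calls 25 held. Depth limits genes with few counts, such as Pcdhb2, Pcdhb13, Pcdhgc5, Pcdhgb8, Pcdh12, Pcdh15 and Pcdh20.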
